A study of Mus musculus with 6 samples.

Results

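Small leucine-rich proteoglycans are secreted proteins of connective tissue matrix, and 7 of them that are found in bone matrix were followed here in mouse pre-osteoblasts under static culture and under simulated microgravity. They are osteomodulin (Omd), lumican (Lum), Prelp, osteoglycin (Ogn), asporin (Aspn), decorin (Dcn) and biglycan (Bgn). The genes were taken by name, through the single gene symbol that GEO's platform annotation gives a probe. Each of the 7 had 1 probe, and all 7 probes passed the filter on low values, and the comparison covered 10146 probes and 8588 of the 8841 genes the annotation names. The cells were 2T3, a pre-osteoblast line from mouse calvaria immortalised with large T antigen, so both groups are cultures of a single line and carry that transgene. Static controls (3 samples) stayed still in Opticells, closed culture cassettes with gas-permeable walls. The other 3 samples, also in Opticells, were turned on a Random Positioning Machine, which keeps changing the direction of gravity so that it averages out, a condition the labels call simulated microgravity. Total RNA of each sample was measured on 1 expression array. The sources used here do not give the length of exposure.

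The proteins share a core of leucine-rich repeats, which most of them use to bind collagen, and several carry chondroitin, dermatan or keratan sulfate chains. In bone they are made by osteoblasts and laid down with type I collagen, where they are known to affect fibril diameter and mineral deposition, and some of them bind growth factors of the TGF-beta family. They are sorted by sequence into class I (Aspn, Dcn, Bgn), class II (Omd, Lum, Prelp) and class III (Ogn).

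All values are probe intensities as multiples of the median of their array. The log2 values of the 6 arrays correlated across probes at 0.968 to 0.985 within groups and 0.961 to 0.987 between groups. The arrays of replicate 2 stood apart from the other 4. They had more empty cells, 134 on static 2 and 163 on microgravity 2 against 68 to 75, and the lowest weights when limma weighted arrays, 0.463 and 0.433 against 0.823 to 2.53. A floor of 0.1 of the array median, set under dim values, held 9.16% of the values of static 2 and 6.44% of microgravity 2, against 17.1% to 19.8% of the other arrays. None of the 7 genes came near that floor. Markers of the labelled cell type were present in part: in static cells the means were 33.1 for Col1a1, 47.5 for Col1a2 and 75.7 for periostin (Postn), the later mineralisation marker bone sialoprotein (Ibsp) was at 0.230 ± 0.0673 (SD, n = 3), and Runx2, Sp7, Bglap and Spp1 were not analysed here. Nothing in the labels says that the samples of a group were separate cultures, so a p-value here speaks of the spread among these samples alone, and that spread may be technical.

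Omd, Lum, Aspn and Ogn fell in simulated microgravity, Prelp and Dcn had lower values on all 3 arrays without passing the threshold, and Bgn overlapped between the groups. Of the 7 genes, 4 passed the threshold in the lower direction and 0 in the higher (limma, Benjamini-Hochberg adjusted p under 0.05 over all probes), where 0.198% of all genes measured passed in the lower and 0.0815% in the higher direction. The groups did not overlap for 6 of the 7, all lower in simulated microgravity, against 8.07% of all genes measured in that direction. All 7 had a log2 change below 0, against 43.4% of all genes. The median log2 change was -1.38 for the 7 and 0.05 over all genes measured. The genes were picked with earlier results of these arrays known, so these counts describe the group and do not set it apart. In total RNA from a culture, fewer cells of a type and less RNA per cell cannot be told apart.

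**Figure D1:**
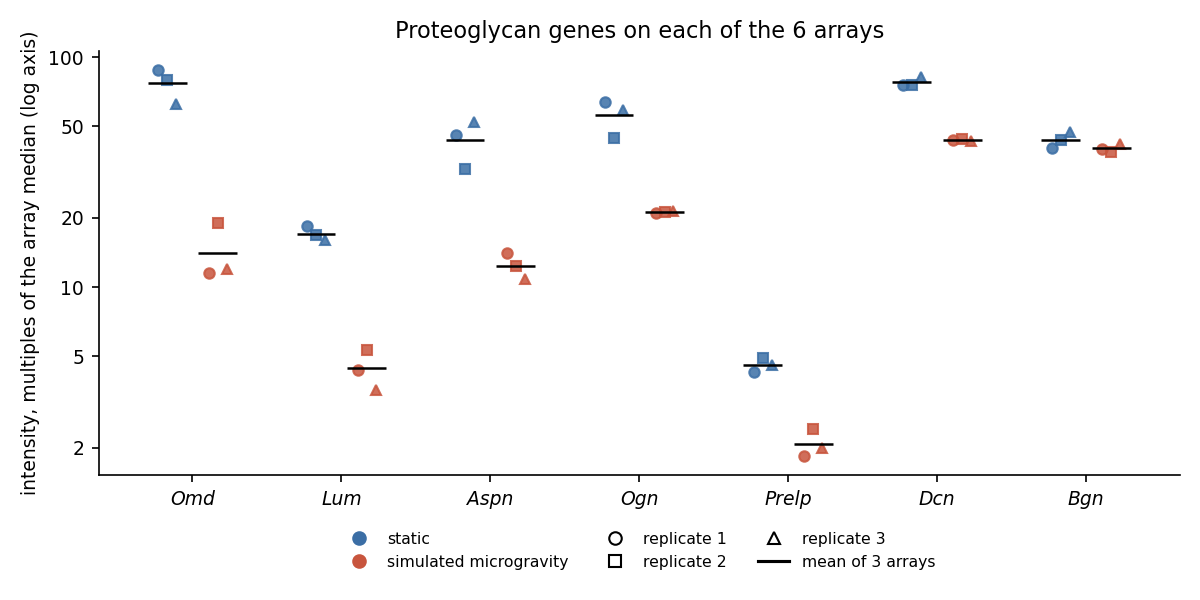
Intensity of each of the 7 genes on each array, in multiples of the array median on a log axis, for static (blue) and simulated microgravity (red) arrays, with marker shapes for replicate numbers and bars for means of 3 arrays. Static and simulated microgravity arrays stay apart for Omd, Lum, Aspn, Ogn, Prelp and Dcn and overlap for Bgn. Heights may be compared between groups of 1 gene and not between genes.

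The promoters of the chromosome 13 genes Omd, Ogn and Aspn, which fell together, and of Bgn, which did not pass the threshold, are printed so that the genes can be compared at their starts. The table of promoters used here, made from RefSeq on GRCm38.p6, was matched for 5 of the 7 genes, these and Prelp. Each sequence is the 250 bases before the gene's start, on the gene's own strand. Capitals mark matches on either strand to 7 short motifs: the TATA box (TATAAA), the CCAAT box (CCAAT), the E box (CANNTG), the Runx motif (TGTGGT), the AP-1 motif (TGANTCA), the GC box (GGGCGG) and the TEAD motif (GGAATG). The Omd window is chr13:49582212-49582461, the Ogn window chr13:49607765-49608014, the Aspn window chr13:49544193-49544442 and the Bgn window chrX:73483351-73483600, all on the plus strand.
Omd: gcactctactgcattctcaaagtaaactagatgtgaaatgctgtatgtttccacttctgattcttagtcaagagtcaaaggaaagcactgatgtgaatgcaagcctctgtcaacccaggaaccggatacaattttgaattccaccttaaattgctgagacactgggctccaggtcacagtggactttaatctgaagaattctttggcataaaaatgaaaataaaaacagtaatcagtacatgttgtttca
Ogn: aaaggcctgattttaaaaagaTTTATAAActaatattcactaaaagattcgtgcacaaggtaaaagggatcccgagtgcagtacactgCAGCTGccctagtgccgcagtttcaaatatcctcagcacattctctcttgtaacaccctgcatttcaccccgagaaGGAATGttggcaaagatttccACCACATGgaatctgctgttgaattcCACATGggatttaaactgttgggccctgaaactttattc
Aspn: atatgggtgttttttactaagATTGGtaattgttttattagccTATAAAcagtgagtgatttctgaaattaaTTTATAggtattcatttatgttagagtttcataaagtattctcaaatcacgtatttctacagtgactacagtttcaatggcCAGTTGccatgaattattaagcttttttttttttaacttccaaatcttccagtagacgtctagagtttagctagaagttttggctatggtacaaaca
Bgn: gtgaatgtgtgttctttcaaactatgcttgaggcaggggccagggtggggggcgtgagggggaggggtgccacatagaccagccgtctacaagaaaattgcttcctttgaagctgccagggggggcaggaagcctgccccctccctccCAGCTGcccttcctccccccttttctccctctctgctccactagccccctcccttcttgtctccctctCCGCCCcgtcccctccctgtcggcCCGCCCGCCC

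These windows differed in base composition. G and C made up 30.0% of the Aspn window, 38.4% of Omd and 42.0% of Ogn, against 64.4% of Bgn, 55.6% of Prelp and a median of 52.4% over 32817 promoter windows of the same length. The Omd window held no match to the 7 motifs. The Ogn window held TATA boxes on both strands, overlapping, 229 and 227 bases before the start, and E boxes 162, 63 and 39 bases before it. Its Runx motif, 65 bases before the start, overlaps an E box, and its TEAD motif begins 86 bases before the start. The Aspn window held TATA boxes 207 and 178 bases before the start, 1 CCAAT box and 1 E box. The Bgn window held 3 GC boxes, 34, 10 and 6 bases before the start, the last 2 overlapping, and 1 E box. Over all windows the TATA box was found in 12.4%, a CCAAT box in 33.8%, an E box in 66.2%, a Runx motif in 14.0%, an AP-1 motif in 6.75%, a GC box in 32.7% and a TEAD motif in 12.6%. A match is a description of the letters and not a binding site.

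Among the class II genes, Omd fell the most. Omd encodes osteomodulin, also called osteoadherin, an acidic keratan sulfate proteoglycan of mineralised matrix that binds hydroxyapatite and cells. Its intensity was 87.8, 79.8 and 62.8 times the array median on static arrays 1, 2 and 3, and 11.5, 18.9 and 12.0 on microgravity arrays 1, 2 and 3. The groups lay far apart, and the lowest static array was 3.31 times the highest microgravity array, which was microgravity 2. The means were 76.8 ± 12.8 and 14.1 ± 4.18 (SD, n = 3), a 5.53-fold fall (95% interval 3.71 to 8.25, log2 change -2.47, SE 0.24, limma adjusted p = 0.0295). By log2 change Omd was number 2 of the 10146 probes, counted from the most lowered.

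Lum encodes lumican, a keratan sulfate proteoglycan that regulates collagen fibril assembly in cornea and other tissues and is made by osteoblasts. Lum was at 18.4, 16.8 and 16.0 in static cells and at 4.37, 5.33 and 3.57 in simulated microgravity. Its static arrays differed little among themselves, with a coefficient of variation of 7.09%, against 19.9% among the microgravity arrays. It fell 3.90-fold (95% interval 2.91 to 5.23, log2 change -1.96, SE 0.18, limma adjusted p = 0.0295), and its p ranked number 3 among all probes.

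Prelp encodes a protein with a basic, heparin-binding end that links basement membranes to collagen. Prelp read 4.26, 4.90 and 4.59 in static cells and 1.84, 2.40 and 1.99 in simulated microgravity. All 3 microgravity arrays were below all 3 static arrays, and microgravity 2 was the highest of its group, as it was for Omd and Lum. The ratio of static to microgravity was 2.22 (95% interval 1.70 to 2.90), which did not pass over all probes (log2 change -1.15, SE 0.16, limma adjusted p = 0.0621).

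The class III gene Ogn encodes osteoglycin, also called mimecan, a matrix protein that bone morphogenetic protein 1 processes. Ogn was at 64.0, 44.6 and 59.1 on the static arrays and at 21.1, 21.3 and 21.4 on the microgravity arrays. The spread was uneven, with a coefficient of variation of 18.1% in static cells, where static 2 was low, and 0.875% in simulated microgravity. Ogn fell 2.60-fold (95% interval 1.95 to 3.46, log2 change -1.38, SE 0.17, limma adjusted p = 0.0464).

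Of the class I genes, only Aspn passed the threshold. Asporin carries a stretch of aspartic acids in place of a glycosaminoglycan chain, binds collagen and calcium, and restrains TGF-beta and BMP signalling. Aspn read 46.0, 32.7 and 52.0 in static cells and 14.0, 12.3 and 10.8 in simulated microgravity. As for Ogn, static 2 was the lowest static array, and it was still 2.33 times the highest microgravity array. Aspn fell 3.47-fold (95% interval 2.45 to 4.91, log2 change -1.79, SE 0.21, limma adjusted p = 0.0402).

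Decorin, which carries a single chondroitin or dermatan sulfate chain, coats collagen fibrils and binds TGF-beta. Dcn was at 75.5, 75.7 and 82.1 in static cells and at 43.6, 44.2 and 43.3 in simulated microgravity. It varied little within either group, with a coefficient of variation of 4.84% and 1.00%, and the groups did not overlap. The ratio of static to microgravity was 1.78 (95% interval 1.42 to 2.23), which did not pass over all probes (log2 change -0.83, SE 0.14, limma adjusted p = 0.0903).

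Biglycan is the closest relative of decorin and is known for its part in keeping bone mass. Bgn was at 40.1, 43.6 and 47.2 in static cells and at 40.0, 38.5 and 42.0 in simulated microgravity. The groups overlapped, with static 1 below microgravity 3. The log2 change was -0.12 (95% interval -0.45 to 0.22, limma adjusted p = 0.881), an interval that leaves room for a fall of up to 1.37-fold. Its class I relatives Aspn and Dcn had intervals that lay wholly below that of Bgn.

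**Figure D2:**
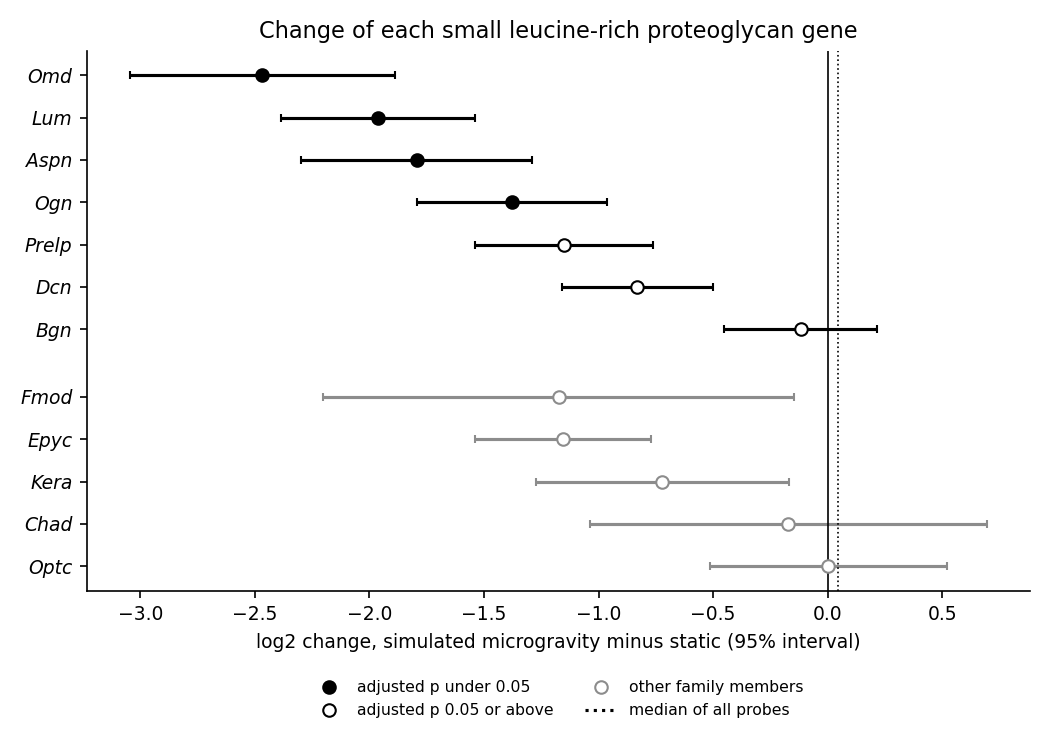
Log2 change of each gene, simulated microgravity minus static, with its 95% interval from limma; black for the 7 genes, grey for the other measured members of the family, filled where the adjusted p was under 0.05. The changes run from -2.47 for Omd to -0.12 for Bgn, and the intervals of neighbours in this order overlap except for Dcn and Bgn.

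In the order of change the genes stood as Omd, Lum, Aspn, Ogn, Prelp, Dcn and Bgn. The 95% intervals of neighbours in this order overlapped, except those of Dcn (-1.16 to -0.50) and Bgn (-0.45 to 0.22). The classes were mixed along it, with Omd at -2.47 and Prelp at -1.15 in class II, and Aspn at -1.79 and Bgn at -0.12 in class I.

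Each gene was also set against Bgn within each array, where a scale factor of the whole array cancels. Relative to its static mean, the log2 ratio of Omd to Bgn was between -0.39 and 0.33 on static arrays and -2.61, -1.83 and -2.61 on microgravity arrays 1, 2 and 3. That of Dcn, the smallest of these differences, was between -0.04 and 0.08 on static arrays and -0.71, -0.64 and -0.79 on microgravity arrays. The log2 change of each gene minus that of Bgn was -2.35 for Omd, -1.85 for Lum, -1.68 for Aspn, -1.26 for Ogn, -1.03 for Prelp and -0.71 for Dcn. For each of these 6 comparisons the 3 microgravity arrays lay below the 3 static arrays. Bgn was picked as the comparator because its change was known to be the smallest, so these directions were set by that choice and are a description, with no test.

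**Figure D3:**
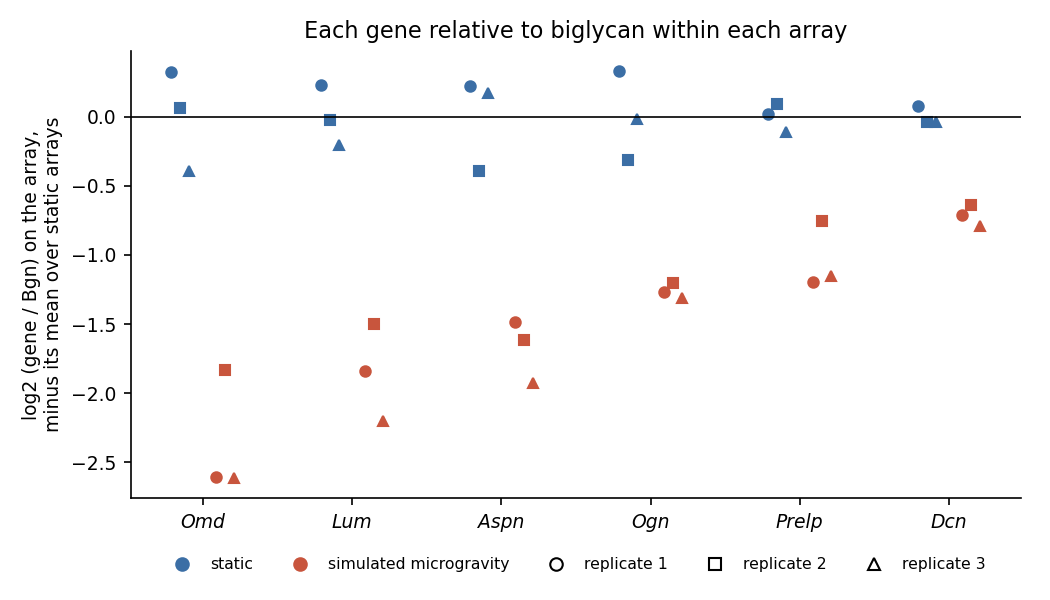
Log2 ratio of each gene to Bgn on the same array, minus the mean of that ratio over static arrays, with static arrays in blue, simulated microgravity in red and shapes for replicate numbers. Microgravity arrays lie below static arrays for all 6 genes, at about -2.61 to -1.83 for Omd and at -0.79 to -0.64 for Dcn.

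How firm the calls are depends on having all 6 arrays. With static 1, 2 or 3 or microgravity 1, 2 or 3 left out, 0 of the 7 genes and 0 probes passed by limma, while 6 of the 7 genes kept an unadjusted p under 0.05 each time. Of the 9683 to 10018 probes tested in these fits, 761 to 968 were at that unadjusted level. Without 1 array, the adjusted p of Omd was 0.0613 to 0.201, that of Lum 0.0613 to 0.201, that of Aspn 0.121 to 0.216 and that of Ogn 0.121 to 0.258. The log2 changes moved little, between -2.70 and -2.34 for Omd, -2.11 and -1.82 for Lum, -1.99 and -1.65 for Aspn, and -1.53 and -1.27 for Ogn. The arrays of replicate 2, which held fewer floor values, gave smaller differences for 6 of the genes and a larger one for Bgn. Between those 2 arrays alone the log2 difference was -2.07 for Omd, -1.65 for Lum, -1.40 for Aspn and -1.07 for Ogn, and over the other 4 arrays it was -2.66, -2.12, -1.99 and -1.53. Without these 2 arrays 0 of the 7 genes passed by limma, with 6 at an unadjusted p under 0.05, as were 848 of 8896 probes.

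The other measured members of the family had lower or like values and none passed (0 of 5 by limma, 3 at an unadjusted p under 0.05, where 5.69% of all genes measured were lower and 5.79% higher at that level). Their median log2 change was -0.72. Epiphycan (Epyc), best known from growth plate cartilage, was dim, at 0.260, 0.218 and 0.241 in static cells and 0.0453, 0.124 and 0.0243 in simulated microgravity. The last group lay mostly under the floor, so its log2 change of -1.16 understates the difference (limma adjusted p = 0.0607). Keratocan (Kera), a keratan sulfate proteoglycan of cornea, was at 1.51, 1.86 and 1.36 and then at 0.862, 0.838 and 1.18 (limma adjusted p = 0.308). Fibromodulin (Fmod), a collagen-binding relative of lumican that is abundant in tendon, was at 0.812, 1.76 and 1.46 and then at 0.676, 0.803 and 0.335 (limma adjusted p = 0.383). Chondroadherin (Chad) and opticin (Optc) had log2 changes of -0.17 and 0.00, with groups that overlapped.

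Many of these genes are neighbours in the mouse genome. In the gene table of GRCm38.p6, used here for gene order only, Aspn, Omd and Ogn lie close together in that order on chromosome 13, as do Dcn, Lum, Kera and Epyc on chromosome 10, and Optc, Prelp and Fmod on chromosome 1, while Bgn lies on the X chromosome away from the others. Aspn, Omd and Ogn overlap the centromere protein gene Cenpp, which was at 3.71 ± 1.04 (SD, n = 3) in the static group against 2.18 ± 0.777 in the other (log2 change -0.79, limma adjusted p = 0.470). Taking the 5 nearest genes on each side of each of the 7 gave 41 other genes, of which 9 were measured. Of those 9, 0 passed by limma, 4 had an unadjusted p under 0.05 (3 lower), and 4 were members of the same family (Kera, Epyc, Optc and Fmod). The 3 lower genes were Kera, Epyc and Fmod, already counted with the family above, and the higher one was Btg2. No neighbour from outside the family was lower at that level. Over all genes measured, 5.69% were lower and 5.79% higher at an unadjusted limma p under 0.05. Btg2, an antiproliferative gene beyond Fmod, had a log2 change of 0.66 (limma adjusted p = 0.368), Fgd3 before Aspn had -0.47 (adjusted p = 0.761), and Zfp92 and Zfp275 beside Bgn had 0.27 and 0.07 (adjusted p = 0.927 and 0.976).

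**Figure D4:**
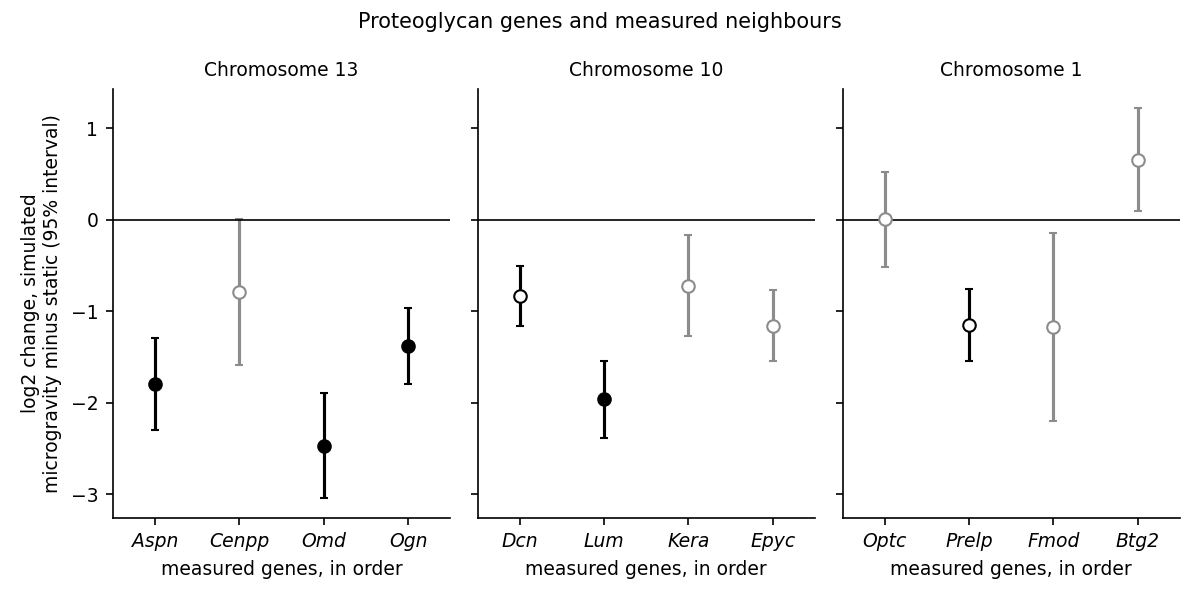
Log2 change with 95% interval of measured genes in their order on chromosomes 13, 10 and 1; black for the 7 genes, grey for neighbours, filled where the adjusted p was under 0.05. On chromosome 13 Aspn, Omd and Ogn fell, with -0.79 for Cenpp, which they overlap; on chromosome 1 Prelp at -1.15 lies beside Optc at 0.00.

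Of 10 measured collagens that these proteoglycans bind, 2 fell, 0 rose and 8 did not pass, where 0.198% of all genes measured passed in the lower direction. All 10 had log2 changes below 0, against 43.4% of all genes, with a median of -0.66. For 4 of them (Col1a1, Col2a1, Col5a1 and Col11a2) the groups overlapped. The groups did not overlap for 6, all lower, against 8.07% of all genes measured in that direction. Col11a1, a chain of the minor fibrillar collagen XI, was at 7.91, 5.68 and 6.39 in static cells and 1.91, 2.11 and 1.81 in simulated microgravity, a fall by a factor of 3.40 (limma adjusted p = 0.0295). Col6a3, a chain of the beaded-filament collagen VI, which decorin and biglycan bind, was at 16.3, 7.55 and 10.6 and then 2.38, 2.27 and 2.71, a 4.47-fold fall (limma adjusted p = 0.0498). Among those that did not pass, the ratio of microgravity to static was 0.518 for Col6a1 (limma adjusted p = 0.115), and Col5a3 and Col1a2 had log2 changes of -0.47 and -1.20 (limma adjusted p = 0.332 and 0.363). The calls of Col11a1, Col6a3 and, below, Pcolce2 were also lost with any 1 array left out, when 0 probes passed by limma and 761 to 968 had an unadjusted p under 0.05.

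Of 20 measured enzymes and helpers that process and cross-link collagen, 1 fell, 0 rose and 19 did not pass, with a median log2 change of -0.19. At an unadjusted limma p under 0.05 there were 6 lower and 0 higher, against 5.69% and 5.79% of all genes measured. Log2 changes were below 0 for 14, against 43.4% of all genes. Over all genes measured, 0.198% passed the threshold in the lower direction. The gene that fell was Pcolce2, an enhancer of procollagen C-proteinase, from 5.24, 5.86 and 4.49 to 1.72, 2.24 and 1.80, 2.71-fold (limma adjusted p = 0.0464). Pcolce, its relative, had a ratio of 0.512, the prolyl hydroxylase P3h1 0.674 and the disulfide isomerase P4hb 0.754, with limma adjusted p-values of 0.292, 0.301 and 0.400.

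The list of genes for building and sulfating glycosaminoglycan chains also held the protein tyrosine sulfotransferases Tpst1 and Tpst2, which do not act on these chains. Its median log2 change was -0.05, and 0 of 20 passed by limma, with 5 lower and 1 higher at an unadjusted p under 0.05. At that level 5.69% of all genes measured were lower and 5.79% higher. The 1 higher gene was Tpst2 (log2 change 0.70, limma adjusted p = 0.421), so no gene of chain synthesis was higher at that level. The lowest p was that of Chst12, a chondroitin 4-sulfotransferase, with 2.86, 3.35 and 2.53 in static cells and 1.36, 1.79 and 1.38 on the microgravity arrays (limma adjusted p = 0.125). Chst15, which makes the doubly sulfated chondroitin unit, and the chondroitin synthesis gene Chpf2 had ratios of 0.387 and 0.629 (limma adjusted p = 0.300 and 0.346). Chst15 was dim, with means of 0.505 in static cells and 0.201 in simulated microgravity, and at 0.105 on microgravity 3 it was close to the floor. Other proteoglycans, of the cell surface, of basement membranes and of the large aggregating kind, had a median of 0.02, with 9 lower and 9 higher. None of these 18 passed (0 by limma, 2 at an unadjusted p under 0.05). The cell surface syndecan Sdc2 was at 16.6, 17.7 and 14.7 in static cells and 6.89, 9.59 and 8.68 on the microgravity arrays (limma adjusted p = 0.0915), and Srgn and Hapln1, for the proteoglycan serglycin and a hyaluronan link protein, had log2 changes of -0.62 and -0.28 (limma adjusted p = 0.452 and 0.775).

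**Figure D5:**
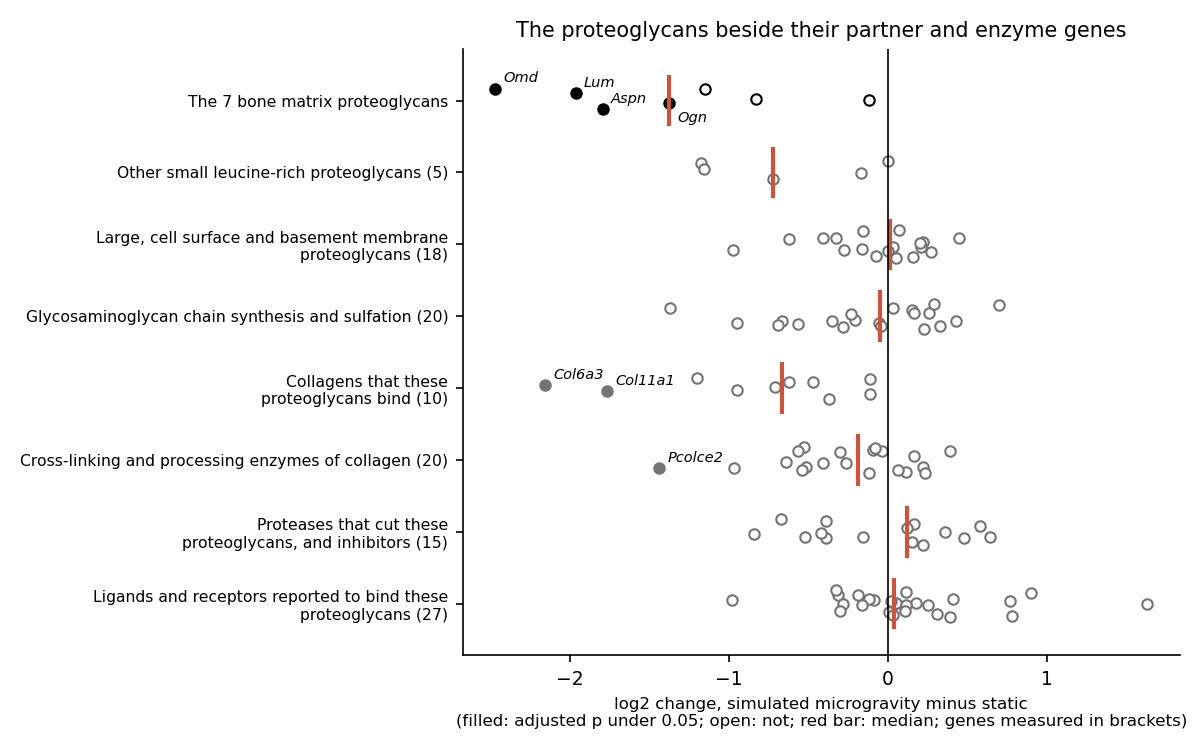
Log2 change of every measured gene of each list, simulated microgravity minus static, filled where the adjusted p was under 0.05, with the median of the list as a red bar. The 7 proteoglycans have a median of -1.38, the other measured members of the family -0.72, the collagens they bind -0.66 and the collagen processing enzymes -0.19. The medians of the other proteoglycans outside the family, chain synthesis, protease and receptor lists lie between -0.05 and 0.12.

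Proteases that cut these proteoglycans, with their inhibitors, had 0 of 15 past the threshold by limma (2 lower and 1 higher at an unadjusted p under 0.05) and a median log2 change of 0.12. Of all genes measured, 5.69% were lower and 5.79% higher at that unadjusted level. The serine protease Htra1 had a ratio of 0.628, the inhibitor Timp2 0.559 and the stromelysin Mmp3 a log2 change of 0.58 (limma adjusted p = 0.113, 0.155 and 0.431). Mmp3 was dim, with means of 0.187 in static cells and 0.284 in simulated microgravity, close to the floor of 0.1. Of 27 growth factors, receptors and matrix partners reported to bind these proteoglycans, 0 passed by limma, with 2 lower and 3 higher at an unadjusted p under 0.05, and their median was 0.04. The innate immune receptor Tlr2, which biglycan can engage, was at 12.3, 9.66 and 9.52 in static cells and 4.55, 5.77 and 5.62 on the microgravity arrays (limma adjusted p = 0.0915). Tgfb1, a growth factor that decorin, biglycan and asporin bind, had values on 4 arrays only, with 0.397 and 0.548 from static 1 and 3, and 1.30 and 1.60 from microgravity 1 and 3 (limma adjusted p = 0.174). Ccn2, a matricellular gene, had a ratio of 1.72 (limma adjusted p = 0.182).

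Genes whose pattern over the 6 arrays was closest to each of the 7 were found by the root mean square difference of gene-centred log2 values, over 8416 other genes with a value on every array. This is a description over 6 arrays, and for genes that differ between the groups it reads mostly that difference. For Omd the closest were Nrep at 0.210, the parathyroid hormone receptor Pth1r at 0.258 and Lum at 0.301. For Lum they were Nrep (0.162), Col11a1 (0.177) and the chemokine Ccl9 (0.244), and for Aspn they were Col11a1 (0.196), the prostaglandin receptor Ptger1 (0.215) and Ogn (0.256). Another of the 7 was among the 3 closest genes for Omd and for Aspn, but not for Lum, Ogn, Prelp, Dcn or Bgn. It did not hold in return, as Omd was number 16 for Lum and Aspn number 18 for Ogn. The 7 were picked with their changes known, so a likeness among them does not set them apart. For Ogn the closest were the growth factor receptor Pdgfra (0.107), the secreted Wnt modulator Sfrp2 (0.173) and Epyc (0.175).

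Pdgfra, the closest to Ogn, had means of 52.2 ± 9.80 in static cells and 19.8 ± 2.16 (SD, n = 3) under simulated microgravity. Its log2 change was -1.39 (limma adjusted p = 0.0521), against -1.38 for Ogn, a likeness that the root mean square difference already contains. Prelp was closest to Rassf2 (0.0875), Pdgfrl (0.0886) and Mrnip (0.112), and Dcn to Mdga1 (0.0574), Cirbp (0.0643) and Lgals9 (0.0756). Bgn was closest to Slc5a3 (0.0344), Cdk11b (0.0396) and Mrps23 (0.0463), whose groups differed as little. Among the 7 the smallest difference was that of Prelp and Dcn, at 0.205, and the largest that of Omd and Bgn, at 1.22. Genes with small changes lie close to many others by this measure, so ranks gave another order. Dcn was number 47 of 8416 genes for Prelp, and Prelp number 120 for Dcn. For Aspn, Ogn was number 3 at 0.256 and Lum number 4 at 0.272.

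Markers of other cell types were given beside these results, since the 7 genes are also made by chondrocytes, tendon cells and fibroblasts. Intensities were summed over each list, and since probes differ in scale a sum follows its brightest probe and may be compared between groups only. Chondrocyte markers had sums of 3.15 to 3.80 over 8 genes in static cells and 3.03 to 3.38 in simulated microgravity. The brightest, Col2a1, was at 1.01 and 0.957, Sox9 was at 0.697 and 0.392, and the dimmer Acan was at 0.203 and 0.208. Of the tenocyte list, 4 of 6 were measured, with sums of 2.74 to 3.93 and 1.85 to 1.97. Most of each sum came from Fmod and Kera, which belong to the proteoglycan family, so it repeats their values given above. The other measured genes, Tnmd at 0.294 and 0.264 and Thbs4 at 0.0664 and 0.0912, overlapped between groups. Of the 8 osteoblast markers measured, 2 (Pth1r and Alpl) fell and 6 did not pass, where 0.198% of all genes measured passed in the lower direction. Among the 6, Ibsp, Dlx5 and Phex had log2 changes of -0.05, -0.03 and 0.11, at static means of 0.230, 0.731 and 0.185. Ibsp and Phex were close to the floor of 0.1, which limits the fall they could show. The brighter Postn, Col1a1 and Col1a2, which also did not pass, had log2 changes of -0.96, -0.71 and -1.20. The sums of the 8 markers, carried by Postn, Col1a1 and Col1a2, were 124 to 196 in static cells and 62.0 to 101 in simulated microgravity. Adipocyte markers summed to 42.7 to 50.5 over 5 genes and then 35.8 to 41.4, with Lpl at 16.9 and 9.89 (limma adjusted p = 0.109), Fabp4 at 26.1 and 26.5, and Adipoq at 0.110 in static cells. The sums of the blood and macrophage list (6 genes, mostly Cd14, 14.3 to 18.7 and 10.9 to 18.1), the osteocyte list (5 genes, mostly Pdpn, 47.6 to 53.5 and 38.6 to 54.1), the skeletal muscle list (7 genes, 1.32 to 1.49 and 1.28 to 1.56) and the endothelial and epithelial list (7 genes, 0.702 to 0.851 and 0.658 to 1.13) overlapped between groups. The part of the differences in the osteoblast, tenocyte and adipocyte sums in the results above was not tested.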

How the data were processed

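Expression was measured on 6 arrays, 3 static and 3 simulated microgravity. The deposited table holds intensity values on a linear scale for each probe on each array. The sources used here do not say how the authors made them from the scans. Array medians lay between 0.908 and 0.927, so the table was taken as already scaled. Intensities were expressed as multiples of the array median, raised to a floor of 0.1 where lower, and put on the log2 scale. Probes at the floor on every array, or lacking 2 values in either group, did not enter the test, which set aside 354 of 10500. Groups were compared with limma 3.58.1 in R 4.3.3 (lmFit, eBayes with an intensity trend, 2-sided, Benjamini-Hochberg over 10146 probes, threshold 0.05), tested on simulated data. The brightest probe stood for a gene. Array number limits the precision. Symbols came from GEO's platform annotation, with identifiers of 8975 of 8983 probes found in NCBI's gene table. Genes named were the 7, each called list gene, up to 3 others per list by p, the nearest neighbours and the 3 most alike genes. Tpst1 and Tpst2 were named because they sulfate protein tyrosines and not chains. Markers were named by level, beside dimmer ones such as Acan, Tnmd, Adipoq, Ibsp, Dlx5 and Phex. Measured neighbours beyond the nearest were named after their values were seen. The 7 genes and the lists were chosen with earlier results of these data known. Alternatives were the floor, normalization, dim-probe filter, variance model, replicate block and leaving out arrays.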

Additional observations from a re-analysis of the deposited data

How the results depend on the processing

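Log2 changes of all 7 genes stayed below 0 in all 18 alternative fits. Many of these fits could not change the sign. Changing the floor, the dim-probe filter or the eBayes options, or adding the replicate block, left each estimate of the 7 as it was. Only the normalizations, the array weights and leaving out arrays could move it. Past the threshold were 28 probes and 4 of the 7 genes. Probes rose to 53 with the floor at 0.05 of the array median, 59 with no floor, 54 with quantile normalization, 56 with cyclic loess normalization, 59 with the dimmest 25% left out, 54 with the dimmest 50% left out, 178 with array weights and 121 at an adjusted p under 0.1, while the 7 genes gave 5, 5, 5, 5, 5, 5, 6 and 6. The floor at 0.2 of the array median gave 40 probes and robust eBayes 29, each with 4 of the 7. In each fit with 5 calls Prelp joined the first 4, and with array weights Dcn did as well. eBayes without trend gave 19 probes and 2 of the 7 (Omd and Lum). With any 1 array left out the range was 0 to 0 probes and 0 to 0 of the 7, and without replicate 2 of both groups, chosen after seeing the data, 0 and 0. Choosing a probe by p could not be tried, since each gene has 1 probe. The replicate block gave 0 probes and 0 of the 7, with 6 of the 7 at an unadjusted limma p under 0.05, as were 938 of 10146 probes. The labels do not say that the numbers pair the samples, and same-numbered arrays deviated together for number 2 (correlation 0.45) but not for 1 and 3 (-0.21 and -0.18), while static 1 deviated most like microgravity 3 (0.66) and static 3 most like microgravity 1 (0.38). The cause of these differences in calls was not tested.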
